A study of Rattus norvegicus with 7 samples.

Results

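The voltage-gated sodium and calcium channels, the potassium channels and the subunits that assemble with them were followed through 72 h of cyclic tensile stress in cultured rat spinal cord cells. The genes were chosen by symbol, as every probe set with 1 annotated symbol that begins with Kcn or Cacn, or with Scn and a digit, apart from the skeletal muscle subunits Cacna1s and Cacng1. This gave 109 genes with 176 probe sets, out of 14217 named genes and 31042 probe sets on the array. Each gene was represented by its probe set of highest mean signal. The signal is the MAS5.0 intensity, a linear measure in arbitrary units that the authors scaled to a common trimmed mean on every array. A mean signal of at least 100 over the 7 arrays was required before change was described, and 36 of the 109 genes passed it. These are called the measured genes, and the other 73 are described by their signals alone.

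The cultures were prepared from Sprague-Dawley rat spinal cords at embryonic day 15, after removal of the meninges and dorsal root ganglia, and were plated on flexible membranes. They were strained by 10% at 0.5 Hz, and RNA was taken at 2, 6, 12, 24, 48 and 72 h of stress and at 0 h, before loading, to find out which genes change with time under load. The RNA of 5 animals was combined on 1 array at each time, so that there were 7 arrays and no replicate. None of the 7 arrays came from an unloaded culture kept for 2 to 72 h, and time under stress and time in culture cannot be told apart.

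Voltage-gated channels open when the membrane is depolarised. Sodium channels carry the rising phase of the action potential, calcium channels admit the calcium that triggers transmitter release and gene transcription, and potassium channels bring the membrane back to rest and set how often a neuron fires. Each pore is formed by an alpha subunit, and smaller or accessory subunits decide how much of it reaches the surface and how it gates. In the embryonic spinal cord these genes are expressed mainly by neurons, but glia, microglia, fibroblasts and muscle each carry a set of their own.

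Promoters are shown for 5 genes that passed the line test for a rise or a fall over 72 h, described with the tests, so that the DNA of rising and falling genes can be compared. The calcium channel pore gene Cacna1c, the calcium channel beta subunit gene Cacnb3 and the potassium channel partner Kcne4 rose, and the potassium channel genes Kcnd2 and Kcnd3 fell. Each of the 5 has 1 annotated start in the RefSeq table of the rat assembly GRCr8. The stretch runs from 250 bases before the start of transcription to 50 bases after it, 5′ to 3′ on the strand of the gene, and capitals mark matches to the motifs searched.
Cacna1c (chr4:154051699-154051998, minus strand): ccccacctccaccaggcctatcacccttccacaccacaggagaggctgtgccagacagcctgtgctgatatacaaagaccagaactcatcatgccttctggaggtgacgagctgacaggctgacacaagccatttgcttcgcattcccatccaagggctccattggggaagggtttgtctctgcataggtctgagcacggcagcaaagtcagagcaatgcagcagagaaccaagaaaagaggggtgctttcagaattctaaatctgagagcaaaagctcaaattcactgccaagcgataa
Cacnb3 (chr7:131666301-131666600, plus strand): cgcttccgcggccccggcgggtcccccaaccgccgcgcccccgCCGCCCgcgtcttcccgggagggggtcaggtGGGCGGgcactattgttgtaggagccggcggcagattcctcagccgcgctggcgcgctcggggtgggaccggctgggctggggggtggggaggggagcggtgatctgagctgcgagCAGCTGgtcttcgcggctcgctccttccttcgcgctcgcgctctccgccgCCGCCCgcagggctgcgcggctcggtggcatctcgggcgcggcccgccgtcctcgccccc
Kcne4 (chr9:87695798-87696097, plus strand): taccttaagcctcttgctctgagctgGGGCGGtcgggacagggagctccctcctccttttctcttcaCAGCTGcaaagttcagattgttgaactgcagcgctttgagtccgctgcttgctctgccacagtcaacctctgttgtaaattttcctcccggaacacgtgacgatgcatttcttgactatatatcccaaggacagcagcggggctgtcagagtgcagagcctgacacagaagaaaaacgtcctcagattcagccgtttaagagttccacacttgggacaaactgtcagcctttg
Kcnd2 (chr4:50742235-50742534, plus strand): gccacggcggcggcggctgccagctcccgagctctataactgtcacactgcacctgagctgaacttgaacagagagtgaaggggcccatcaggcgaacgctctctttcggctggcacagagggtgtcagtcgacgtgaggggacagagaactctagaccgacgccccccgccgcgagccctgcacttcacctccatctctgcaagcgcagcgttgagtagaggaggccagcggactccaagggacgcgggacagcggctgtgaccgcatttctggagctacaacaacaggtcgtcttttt
Kcnd3 (chr2:195626066-195626365, plus strand): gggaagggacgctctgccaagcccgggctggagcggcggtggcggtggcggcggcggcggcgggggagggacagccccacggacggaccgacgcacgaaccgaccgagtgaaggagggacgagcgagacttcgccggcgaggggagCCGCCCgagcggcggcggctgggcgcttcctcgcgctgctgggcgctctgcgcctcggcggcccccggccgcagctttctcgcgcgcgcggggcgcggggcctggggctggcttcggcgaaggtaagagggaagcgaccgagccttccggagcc

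The motifs were the GC box GGGCGG, the TATA box TATAAA, the E-box CAGCTG, the AP-1 site TGANTCA and the left arm, TTCAGCACC, of the RE1 element bound by the neuronal gene repressor Rest, each on both strands and with overlaps allowed. The Cacnb3 promoter held 3 GC boxes and 1 E-box, the Kcne4 promoter 1 of each, and the Kcnd3 promoter 1 GC box, while the Cacna1c and Kcnd2 promoters held none of the motifs. The bases G and C made up 51.7% of the Cacna1c promoter, 77.7% of the Cacnb3 promoter, 51.3% of the Kcne4 promoter, 61.7% of the Kcnd2 promoter and 77.7% of the Kcnd3 promoter. The 5 promoters thus did not divide by these motifs or by base content into those that rose and those that fell. RefSeq promoters matched 77 of the 109 genes, and some genes had several starts. Of their 86 promoters, 54.65% held a GC box, against 33.06% of all 33469 promoters in the table. A TATA box was found in 3.488% of the channel promoters and 14.22% of all promoters, and an E-box in 23.26% and 15.06%. The AP-1 site was found in 4.651% and 7.329%, and the left arm of RE1 in 2.326% and 0.3556%. For RE1 this is 2 of the 86 channel promoters, and 0 of the 33 promoters of measured genes held it. These matches describe letters in a window and do not show that a factor binds there.

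The filter left out whole branches of the family. None of the 15 inward rectifier genes (Kcnj), which hold the membrane near its resting potential, was measured, and Kcnj10, the inward rectifier of mature astrocytes, lay between 3.05 and 39.6. Of the 12 sodium channel genes 6 were measured, of the 22 calcium channel genes 10 and of the 75 potassium channel and partner genes 20. The genes just inside the filter were Kcnh1, Scn7a and Cacna1b with mean signals of 100.4, 100.5 and 102, and those just outside were Kcnj16 with 97.8, Scn2a with 96.7 and Kcnj14 with 93.5. Of the 73 genes left out, 59 were below 100 on all 7 arrays and 14 reached 100 on at least 1. Of these 14, 2 reached 200, in each case on the 0 h array. Scn2a, a main sodium channel pore of central neurons, had signals of 212, 107, 96.9, 53.2, 93.5, 49.9 and 63.5 at the 7 times in order, from 0 h to 72 h, and Kcnma1, the pore of the large-conductance calcium-activated potassium channel, had 203, 94.8, 76.3, 68.1, 79.0, 41.9 and 36.6. In both, every later array was below the 0 h array, and neither entered a test at this filter. A mean below 100 with 200 reached on 1 array favours lower signals on the others, so this is no finding about these genes. In 4 of the 36 measured genes, Cacna1b, Kcnh1, Scn1a and Scn7a, the mean of the 6 later arrays was below 100, at 88.8, 99.4, 96.3 and 95.9, so that they passed the filter through the 0 h array.

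Change with time was tested with limma on log2(signal + 32), in the measured genes and all other probe sets of mean signal at least 100, 17709 in total, with Benjamini-Hochberg adjustment over all of them and a threshold of 0.05. The first test fitted a straight line over hours and is what "rose" and "fell" refer to, with the linear change over 72 h and its standard error given on the log2 scale. The second, called the curve test, fitted a line and a square in log2(hours + 1) and asks for any smooth change, early drops included, which "changed" refers to. With 1 array a time the error is the scatter around the fitted course and not that between replicate cultures, and no test exists for a single time. Single times are described by the ratio to the 0 h array and by the size threshold of the study's methods, which asks for a signal changed 2 times or more, up or down, and by 200 units or more.

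By the line test 5 of the 36 measured channel genes rose, 8 fell and 23 did not pass. The share that rose, 13.9%, was near the 15.0% of all probe sets tested, and the share that fell was 22.2%, against 14.1%. The linear changes ran between -1.97 in Kcnn4, a calcium-activated potassium channel, and 2.48 in Kcne4. By the curve test 19 of the 36 genes changed, which is 52.8%, against 39.5% of all probe sets and 41.0% of 10315 measured genes taken once each. Both tests were passed by 12 genes, the curve test only by 7 and the line test only by 1, Scn4b. In 6 of the 7 that passed the curve test only, the 0 h array had the highest signal of the 7, and over all measured channel genes this was so in 16 of 36, or 44.4%, where the background was 21.6% of probe sets. A filter that counts the 0 h array favours such genes, and among the 32 channel genes with a mean of at least 100 over the 6 later arrays it was 13, or 40.6%, against 21.0% of probe sets held to the same limit. The 72 h array was the highest in 6 of 36, or 16.7%, against a background of 24.4%. In bulk RNA a fall in the number of cells of a type and a fall in the RNA per cell cannot be told apart.

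**Figure D1:**
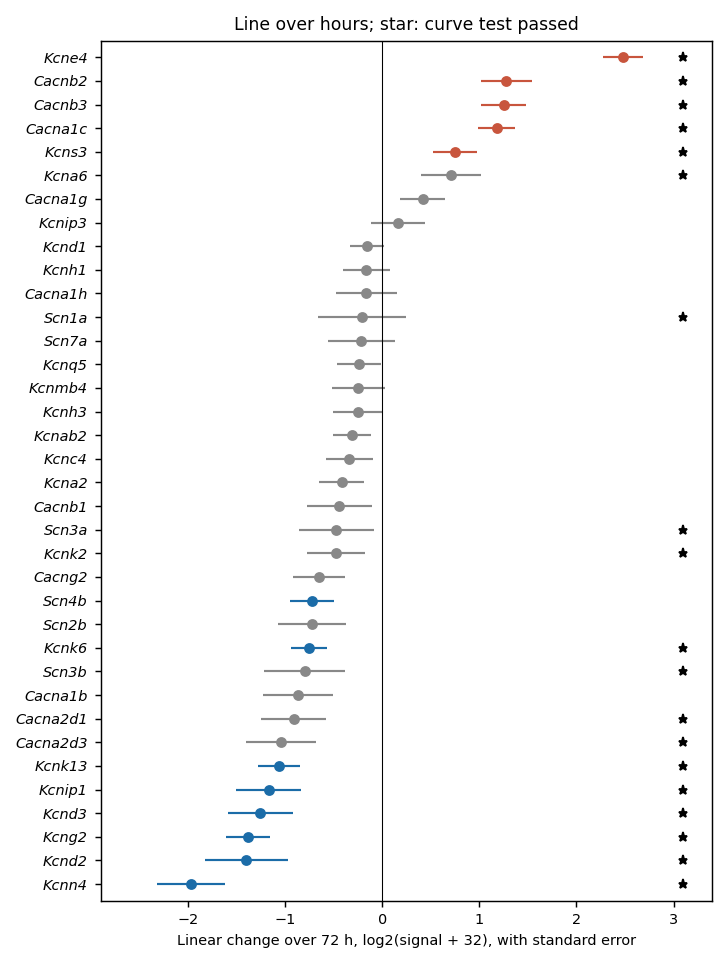
Linear change over 72 h (x axis, log2(signal + 32), bars for the standard error of the fit over 7 arrays) in each of the 36 measured channel genes (y axis). Red marks the 5 that rose and blue the 8 that fell by the line test, grey those that did not pass it, and a star marks the 19 that passed the curve test. Kcne4 at 2.48 and Kcnn4 at -1.97 form the ends.

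Counted by size, only lower signals passed the threshold up to 24 h. At 2 h 3 of the 36 were lower than at 0 h past the size threshold and 0 were higher, where 0.824% of all probe sets were lower and 0.0678% higher. At 6 h 3 were lower and 0 higher, with 2.13% and 0.604% in the background, at 12 h 5 and 0, with 2.98% and 0.734%, and at 24 h 2 and 0, with 2.28% and 0.870%. At 48 h 7 were lower and 2 higher, with 5.30% and 3.47% in the background, and at 72 h 8 were lower, which is 22.2%, and 4 higher, which is 11.1%, with 6.16% and 4.50%. With the arrays scaled to the same median the counts at 72 h were 5 lower and 4 higher. From 2 to 24 h the counts of 0 higher lay near the background, which was at most 0.870%, so they give no order of lower before higher signals. In all, 13 genes passed the threshold at 1 or more times and 10 at 2 or more. The share of all probe sets over several times was not counted, so these counts stand without a background. The median log2 change of the 36 genes from 0 h was -0.29, -0.22, -0.35, -0.25, -0.39 and -0.56 at 2, 6, 12, 24, 48 and 72 h, and that of all probe sets tested lay between -0.04 and 0.01 at every time.

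**Figure D2:**
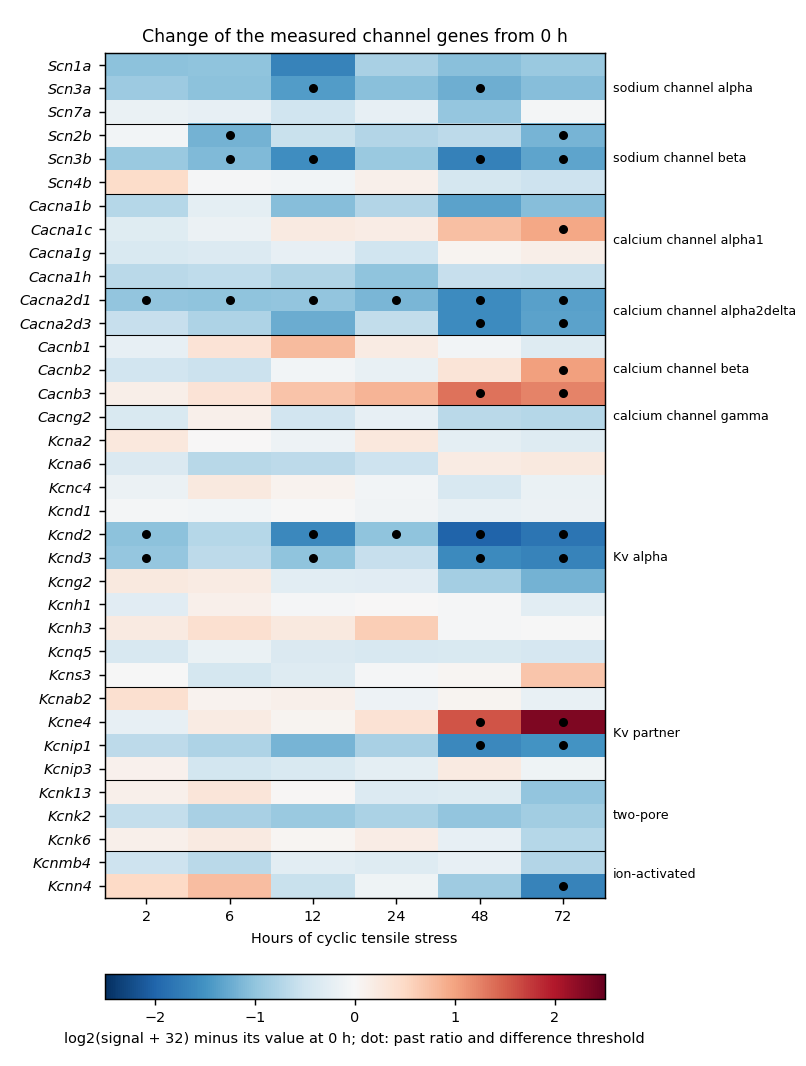
Change of each measured channel gene (rows, grouped by the role of the subunit) from 0 h at the 6 later times (columns, hours of cyclic tensile stress), as log2(signal + 32) minus its 0 h value, blue for lower and red for higher. Dots mark changes past the size threshold. Up to 24 h they stand in blue cells only, and from 48 h on also in red cells, at 48 h those of Kcne4 and Cacnb3.

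The sodium channel genes were lower at every later time as a group. The median log2 change of the 6 measured genes was -0.54, -1.01, -0.97, -0.77, -1.01 and -0.99 at 2, 6, 12, 24, 48 and 72 h. The 0 h array was the highest in 5 of the 6, against 21.6% of all probe sets tested. Without Scn1a and Scn7a, which passed the filter through their 0 h signal, it was the highest in 3 of 4, against 21.0% of probe sets held to the same limit. The median of these 4 was between -0.49 and -1.11. Scn1a, Scn3a and the beta subunit Scn3b changed by the curve test, Scn4b fell, and Scn2b and Scn7a passed neither test. None of the 6 was higher at any time past the size threshold, and of all probe sets tested at most 4.50% were at any single time.

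Scn3a encodes a pore that is expressed most in the embryonic and newborn nervous system, and its signals were 327, 159, 144, 105, 143, 122 and 140.3 at the 7 times. All 6 later arrays lay between 105 and 159, below the 0 h array, and the 72 h signal was 0.429 of that at 0 h (curve test, adjusted p = 0.00618 with limma; linear change -0.47 ± 0.39, adjusted p = 0.391). Scn1a, a pore of inhibitory and motor neurons among others, had 234, 99.3, 101, 51.8, 121, 96.8 and 108 and so stood at its lowest at 12 h (curve test, adjusted p = 0.0335, in a gene that was measured because its 0 h signal was high). Scn7a, a related channel that does not open with voltage in the usual way, had 128, 109.7, 106, 80.6, 107, 49.7 and 122 and did not pass (curve test, adjusted p = 0.491). On chromosome 3 of the rat these 3 genes stand in 1 cluster, with 5 protein-coding genes between Scn3a and Scn1a and 1 between Scn1a and Scn7a.

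The beta subunits are single-pass proteins with an immunoglobulin fold that set the gating and surface level of the pore. Scn3b gave 844, 429, 375, 265, 427, 238 and 321 at the 7 times, at most 0.508 of its 0 h signal on every later array (curve test, adjusted p = 0.00681 with limma; linear change -0.80 ± 0.42, adjusted p = 0.174). A second probe set for Scn3b gave 789, 413, 326, 250.3, 355, 205 and 260.2 and the same picture (curve test, adjusted p = 0.00238). Scn2b took a later course, with 369.7, 349.5, 146, 242, 210.3, 224 and 148, where 2 h stood close to 0 h and the arrays from 6 h on were lower (curve test, adjusted p = 0.0769). Scn4b, which also blocks the pore to give resurgent current, had 223, 317, 218, 212, 247, 157 and 146, highest at 2 h and lowest at 48 and 72 h, and fell (linear change -0.72 ± 0.23, adjusted p = 0.0379). The call of Scn4b was lost without the 2, 48 or 72 h array (highest adjusted p = 0.185) and with no filter on signal (0.0672). Scn2b and Scn4b are direct neighbours on chromosome 8 of the rat.

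The early drop rests on the 0 h array. Without it the curve test no longer passed for Scn3a (adjusted p = 0.617), Scn3b (0.435) or Scn1a (0.714), while without the 48 h or the 72 h array it still passed for Scn3a and Scn3b. Scn1a lost the call also without the 2, 12, 48 or 72 h array. Neuronal marker genes shared the early drop of Scn1a, Scn3a and Scn3b. Scn2b and Scn4b did not, being near or above their 0 h signal at 2 h. Of 29 listed neuronal markers 28 were on the array and 23 were measured, of which 6 fell, 0 rose and 21 changed by the curve test (91.3%, against 39.5% of all probe sets), and all 23 were highest at 0 h. Their summed signal over the 28 genes was 43110.5, 25625, 21579, 14065, 19719.8, 12846 and 15839.6 at the 7 times, with the same dip at 12 h and partial return at 24 h as Scn3b, and their median log2 change was -0.76, -0.95, -1.74, -1.26, -1.99 and -1.49 at the 6 later times. Tubb3, a tubulin of neurons, had 379 at 72 h against 1771 at 0 h, and Rbfox3, the antigen of the neuronal stain NeuN, 113 at 72 h against 379 at 0 h. Others were closer to their 0 h signal at 72 h, Gad1 with 1453 against 1478, Nefm with 722 against 883 and Uchl1 with 2022 against 2938. Chat, Gad2, Isl1 and Nefh were below 100 on all arrays and none of the 28 was at 0 throughout. How far the neuronal content of the cultures takes part in the course of the sodium channels was not tested.

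**Figure D3:**
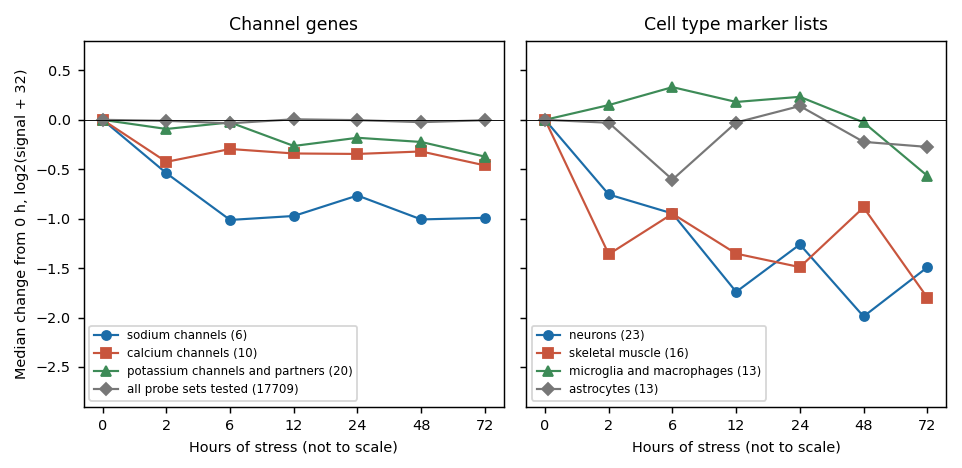
Median change from 0 h (y axis, log2(signal + 32)) against hours of stress (x axis, spaced evenly and not to scale), on the left for the measured sodium, calcium and potassium channel genes and all probe sets tested, and on the right for 4 cell type marker lists, with the number of genes in brackets. The sodium channels lie at -0.99 at 72 h and the potassium channels at -0.37, and the neuronal markers at -1.49.

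Among the calcium channel genes 3 rose, 0 fell by the line test and 2 further genes changed by the curve test, with 10 measured. The 3 that rose encode subunits known to assemble in L-type channels. Cacna1c is the main L-type pore outside skeletal muscle, and Cacnb2 and Cacnb3 are cytosolic beta subunits that bind alpha1 pores and carry them to the surface. The 2 further genes that changed, Cacna2d1 and Cacna2d3, encode alpha2delta subunits, extracellular proteins that help to place calcium channels at synapses. Cacna2d1 is the binding site of gabapentin.

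Cacnb3 had signals of 358, 401, 463, 607, 668, 971 and 884 at the 7 times. Every array up to 48 h was above the one before it, and the 48 and 72 h signals were 2.71 and 2.47 times that at 0 h, both past the size threshold (linear change 1.25 ± 0.23, adjusted p = 0.004 with limma). Cacna1c had 231, 182, 206, 276, 269, 410.4 and 485, a small dip at 2 h and 6 h followed by 2.10 times the 0 h signal at 72 h (linear change 1.18 ± 0.19, adjusted p = 0.00219). Its second probe set, with a mean of 62.5, was too dim to be tested, and had 107 at 72 h against 45.8 at 0 h.

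Cacnb2 had 162, 108, 101, 153, 139, 210.5 and 365, like Cacna1c lowest at 2 and 6 h and highest at 72 h, the only time past the size threshold (linear change 1.28 ± 0.27, adjusted p = 0.00657). The rise of Cacnb2 rests on that array, since without it the adjusted p was 0.193, whereas the rises of Cacna1c and Cacnb3 passed with each of the 7 arrays left out in turn. Cacnb1, the beta subunit of skeletal muscle and of some neurons, had 135, 113, 179.6, 256, 161, 129 and 102, with its highest signal at 12 h, and did not pass (curve test, adjusted p = 0.177). A second probe set of Cacnb1, with a mean of 48.6 too dim to be tested, was highest at 0 h with 105 and had 15.5 at 72 h. Cacnb4, the last of the beta subunits, stayed at or below 27.9 on all arrays. Gem, a small GTPase that binds beta subunits and lowers L-type current, had 333, 503, 391, 559, 643, 1149 and 1355 and rose (linear change 1.83 ± 0.21, adjusted p = 0.000533).

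The alpha2delta genes were lower instead. Cacna2d1 had 754, 366, 357, 367, 322, 232 and 273 and was below its 0 h level past the size threshold at all 6 later times, the single channel gene for which this was so, with a ratio of 0.485 at 2 h and 0.363 at 72 h (curve test, adjusted p = 0.00365 with limma; linear change -0.91 ± 0.33, adjusted p = 0.0639). Cacna2d3 had 311, 199, 168, 113, 193, 83.4 and 104, with the 24 h array above its neighbours and the lowest signals at 48 and 72 h (curve test, adjusted p = 0.0169; linear change -1.04 ± 0.36, adjusted p = 0.0534). Without the 0 h array neither passed the curve test, at adjusted p = 0.135 and 0.219, and Cacna2d3 missed it without the 72 h array as well, at 0.0539.

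Cacna2d1 is carried by muscle as well as by neurons. Of 20 listed skeletal muscle markers 19 were on the array and 16 measured, of which 3 fell and 0 rose. By the curve test 7 changed, which is 43.8%, near the 39.5% of all probe sets. The 0 h array was the highest in 15 of the 16, against 21.6% of all probe sets tested. Past the size threshold 12 were lower at 2 h and 13 at 72 h, against 0.824% and 6.16% of all probe sets. The summed signal of the 19 genes was 18148, 6966, 9661, 7029.9, 6077, 9936 and 4480.4 at the 7 times, below 0 h on every later array. The sum was lowest at 72 h and Cacna2d1 at 48 h. Acta1, the actin of skeletal muscle, had 757 at 72 h against 4152 at 0 h. Chrng and Myh8 were below 100 on all arrays. The part of muscle cells and of neurons in the course of Cacna2d1 was not tested.

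The remaining pores did not pass either test. Cacna1b, the presynaptic N-type pore, had 180.1, 98.1, 147, 69.3, 96.0, 51.7 and 70.0, all later arrays being below 0 h (curve test, adjusted p = 0.0528). With a mean of 88.8 over the later arrays, Cacna1b was measured because its 0 h signal was high, which favours such a course. Cacna1h, a T-type pore that opens near rest, had 223, 128, 132, 119.7, 94.8, 138 and 136, likewise below 0 h on all later arrays (curve test, adjusted p = 0.0517). A second probe set of Cacna1h, with a mean of 61.9 too dim to be tested, went the other way, with 82.2 at 72 h against 56.0 at 0 h. The other T-type pore measured, Cacna1g, had 213, 157, 161, 180.4, 143, 225 and 241, and its 2 highest signals were at 48 and 72 h (adjusted p = 0.213 for the line). Cacng2, better known as a partner of AMPA receptors, had 157, 114, 176, 104, 133, 86.5 and 84.2 (adjusted p = 0.0895 for the line). The other L-type pores were not measured, with Cacna1d between 52.4 and 74.0 and Cacna1f, the L-type pore of the retina, at 2.57, 19.1, 18.2, 12.0, 5.64, 6.26 and 3.37 and so below 20 on every array, for which no ratio is given. Cacna1f is the calcium channel that the study's text names among its RT-PCR targets. The study counts it among the upregulated genes of its arrays and reports a rise of its RT-PCR level at 48 to 72 h. In the deposited signals Cacna1f passed the size threshold at no time. The transcript listed with the primers is one that RefSeq assigns to Cacna1c, and which gene they amplify was not tested.

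Among the potassium channels and partners 2 rose, 7 fell and 11 changed by the curve test, with 20 measured. The share that changed was 55.0%, against 39.5% of all probe sets tested, of which 15.0% rose and 14.1% fell. The median log2 change of the 20 genes was -0.09, -0.03, -0.26, -0.18, -0.22 and -0.37 at 2, 6, 12, 24, 48 and 72 h. The genes that fell included the subunits of 1 channel complex. Kcnd2 and Kcnd3 encode Kv4 pores, which give the fast transient A-type current of the neuronal soma and dendrites, and Kcnip1 encodes a calcium-binding protein that attaches to their ends inside the cell.

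Kcnd2 had signals of 372, 168, 214, 99.6, 169, 69.0 and 82.2 at the 7 times, was past the size threshold at every later time but 6 h, and at 72 h stood at 0.221 of its 0 h signal (linear change -1.40 ± 0.43, adjusted p = 0.0337 with limma; curve test, adjusted p = 0.00926). Kcnd3 had 389, 183, 235, 177, 250.0, 107 and 101 and stood at 0.258 at 72 h (linear change -1.25 ± 0.34, adjusted p = 0.02). Kcnip1 had 280.2, 167, 151, 107, 146, 70.4 and 79.4 and stood at 0.283 (linear change -1.17 ± 0.34, adjusted p = 0.0261). All 3 were lower at 2 h than at 0 h, were above their 12 h signal at 24 h and were lowest at 48 and 72 h, and in none did a later array reach the 0 h signal.

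A second probe set was measured for both pores. That of Kcnd2 gave 269, 143, 124, 92.6, 115, 53.0 and 111, a linear change of -0.81 ± 0.43 that did not pass (adjusted p = 0.179) and a curve test that did (adjusted p = 0.0149). That of Kcnd3 gave 309.6, 188, 194, 126, 190.3, 127 and 108, with a linear change of -0.87 ± 0.30 (adjusted p = 0.0533) and a curve test at 0.0216. The line call of Kcnd2 was the least steady of the 13, being lost when the 0, 2, 6, 48 or 72 h array was left out (highest adjusted p = 0.103). That of Kcnd3 was lost without 48 or 72 h and that of Kcnip1 without 2, 48 or 72 h, with the sign unchanged throughout. Without the 0 h array the curve test of all 3 missed the threshold, at adjusted p = 0.131 for Kcnd2, 0.0599 for Kcnd3 and 0.104 for Kcnip1, and that of Kcnd3 missed it also without 48 h (0.0804) or 72 h (0.125).

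Not every gene of the Kv4 complex took this course. Kcnd1, the remaining Kv4 pore, had 202, 195, 192, 202, 187, 174 and 179, between 0.858 and 0.999 of its 0 h signal at all times (linear change -0.16 ± 0.18, adjusted p = 0.528). Kcnip3, which also acts as a calcium-sensitive transcription repressor, had 153, 168, 103, 110.1, 126, 185 and 139.6 (linear change 0.16 ± 0.28, adjusted p = 0.696). The difference between these courses and those of Kcnd2 and Kcnd3 was not tested. Dpp6, a transmembrane protein that speeds the gating of Kv4 channels, had 730.0, 466, 369, 316, 428, 276 and 351, all later arrays being below 0 h (curve test, adjusted p = 0.0079; line, adjusted p = 0.175). The neuronal marker sums given with the sodium channels, whose lowest values were at 12 and 48 h, stand beside these genes too, and their part was not tested.

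**Figure D4:**
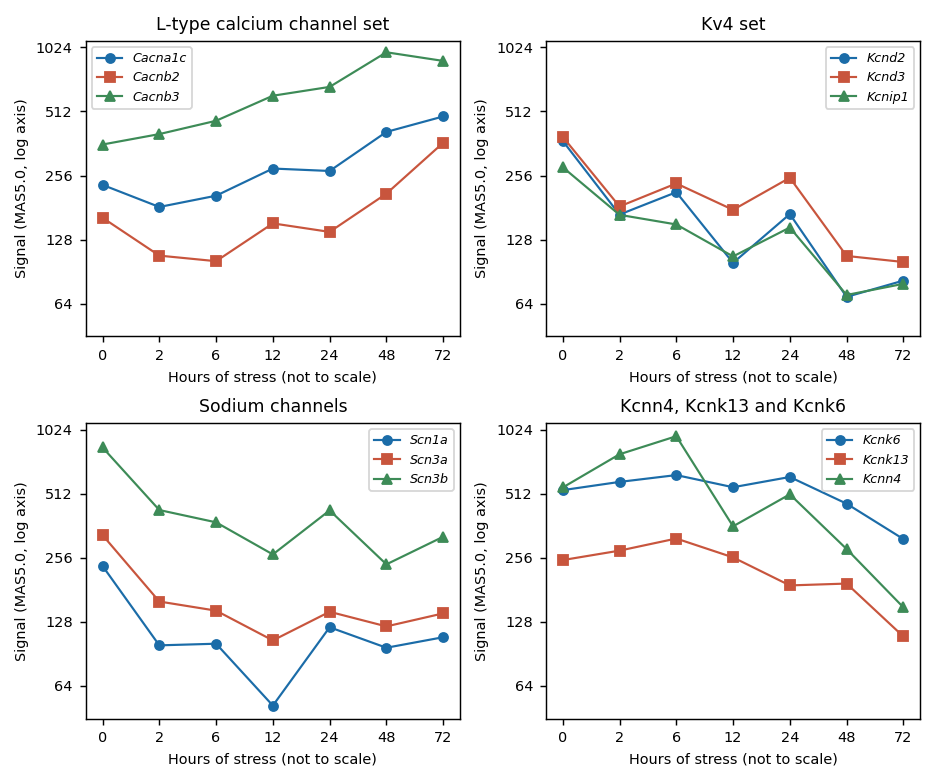
Signal (y axis, MAS5.0 units, log axis) against hours of stress (x axis, spaced evenly and not to scale) for 4 sets of channel genes, 1 array per point. Cacna1c, Cacnb2 and Cacnb3 reach 485, 365 and 884 at 72 h, Kcnd2, Kcnd3 and Kcnip1 reach 82.2, 101 and 79.4, Scn1a, Scn3a and Scn3b drop by 2 h, and Kcnn4, Kcnk13 and Kcnk6 are lowest at 72 h.

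By the line test the largest rise among the measured channel genes was that of Kcne4, a single-pass partner that in human channels inhibits several Kv pores. It had 239, 203, 282, 252, 319, 775 and 1331 at the 7 times, within 203 to 319 up to 24 h, and at 48 and 72 h stood at 3.23 and 5.56 times its 0 h signal (linear change 2.48 ± 0.21, adjusted p = 0.000144 with limma). The call held with each array left out in turn, with a linear change between 2.40 and 2.58. The pore that Kcne4 is best known to act on, Kcnq1, was not measured and stayed at or below 58.1.

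Kcns3 encodes a silent Kv subunit, which forms no channel alone and modifies Kv2 pores. It had 448, 447, 322, 353, 435, 466 and 739.7, with the 72 h array standing apart from the rest at 1.65 times 0 h (linear change 0.75 ± 0.23, adjusted p = 0.0328). Without that array the change was 0.29 and the adjusted p 0.601, and the call was lost also without the 6 h array (0.0568) or the 24 h array (0.0501). Kcng2, another silent subunit, went the other way with 167, 203, 199, 134, 133, 79.1 and 55.5, where 2 h and 6 h were the highest arrays and 48 h and 72 h the lowest (linear change -1.38 ± 0.23, adjusted p = 0.00221). The fall of Kcng2 passed with each array left out in turn, but its signals did not pass the size threshold at any time. Kcnb2, a Kv2 pore with which such subunits assemble, stayed at or below 17.6.

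Kcna6, a Shaker-type delayed rectifier, was low in the middle of the course. It had 185, 138, 103, 106, 119, 219.6 and 224, lowest at 6 and 12 h and highest at 48 and 72 h (curve test, adjusted p = 0.012 with limma; linear change 0.71 ± 0.31, adjusted p = 0.107). Without the 72 h array the curve test gave an adjusted p of 0.0564. Kcna2, its relative of the juxtaparanode of myelinated axons, had between 103 and 169.8 and did not pass (linear change -0.42 ± 0.24, adjusted p = 0.208). The rest of the measured Kv family passed neither test, namely Kcnc4, Kcnh1, Kcnh3 and Kcnq5 among the pores and Kcnab2, a cytosolic beta subunit with 347, 466, 370.1, 384, 315, 368 and 299, among the partners. Their linear changes lay between -0.34 ± 0.24 for Kcnc4 and -0.16 ± 0.24 for Kcnh1.

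A different pattern, with the highest signal at 6 h and the lowest at 72 h, was seen in Kcnn4, the intermediate-conductance calcium-activated channel of microglia and blood cells, in Kcnk13, a 2-pore channel that sets the resting potential of microglia in mice, and in Kcnk6, a 2-pore channel through which potassium leaves macrophages in mice. Kcnn4 had 547, 784, 953, 359.6, 508, 281 and 149.8 at the 7 times, 1.74 times the 0 h signal at 6 h and 0.274 of it at 72 h (linear change -1.97 ± 0.35, adjusted p = 0.0031 with limma). Kcnk13 had 249.7, 276, 315, 257, 189.8, 194 and 109 and stood at 0.438 at 72 h (linear change -1.06 ± 0.22, adjusted p = 0.00581). Kcnk6 had 532, 581, 626, 549, 613, 459 and 313 and stood at 0.589 (linear change -0.75 ± 0.19, adjusted p = 0.014).

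In all 3 the 6 h array was the highest and the 72 h array the lowest. Without the 72 h array the adjusted p was 0.0707 for Kcnn4, 0.149 for Kcnk13 and 0.376 for Kcnk6. A second probe set of Kcnk6 gave 121, 212, 175, 204, 188, 118 and 129, at 1.07 times 0 h at 72 h, and did not pass (linear change -0.43 ± 0.28, adjusted p = 0.286), so that the probe sets of Kcnk6 disagreed in direction at 72 h. Microglial and macrophage markers followed a like course. All 14 listed were on the array, 13 were measured, 7 fell, 0 rose and 10 changed by the curve test (76.9%, against 39.5% of all probe sets), and the summed signal was 85927, 97594, 118682, 97044, 97118, 84744 and 60988 at the 7 times. Aif1 had 654 at 72 h against 3578 at 0 h and fell (linear change -2.54 ± 0.20, adjusted p = 0.000144), whereas Csf1r had 4813 against 5069 (linear change -0.06 ± 0.22, adjusted p = 0.875). Cx3cr1 was below 100 on all arrays. The part of microglial number or state in the course of Kcnn4, Kcnk13 and Kcnk6 was not tested.

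Kcnk2, a 2-pore background channel that opens on membrane stretch, was lower at every later time. It had 263, 163, 137, 123, 138, 117 and 130.3 at the 7 times, at most 0.619 of its 0 h signal on every later array (curve test, adjusted p = 0.0155 with limma; linear change -0.48 ± 0.30, adjusted p = 0.262). Without the 0 h array it did not pass (adjusted p = 0.578), the later arrays lying between 117 and 163. Its stretch-gated relatives Kcnk4 and Kcnk10 were below 100 on all arrays. Kcnmb4, the neuronal beta subunit of the Kcnma1 channel, had 220.3, 143, 126, 178, 171, 187 and 119 and passed neither test (curve test, adjusted p = 0.589).

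The lists of genes that work beside these channels held 3 groups, against a background of 15.0% of probe sets that rose, 14.1% that fell and 39.5% that changed. Of channels and exchangers of other families 24 of 48 listed genes were measured, of which 3 rose, 3 fell and 14 changed by the curve test, which is 58.3%. Of ion pumps, their subunits and chloride cotransporters 11 of 18 were measured, of which 1 rose, 3 fell and 9 changed, which is 81.8%. Of proteins that bind or anchor channels 19 of 36 were measured, of which 2 rose, 3 fell and 11 changed, which is 57.9%. Among the last, Ank3, the ankyrin that holds sodium channels at the axon initial segment, had 1109, 1009.6, 1124, 647, 832, 364 and 338 and fell (linear change -1.73 ± 0.25, adjusted p = 0.00129 with limma), and Fgf13, a cytosolic partner of sodium channels, had 1834, 855, 795, 426, 644, 424 and 454 and changed (curve test, adjusted p = 0.000878). Rest, the repressor that binds RE1, was below 100 on all arrays.

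The trimmed mean signal, which the authors' scaling sets, was between 500.144 and 500.162 on the 7 arrays. The median was highest at 0 h with 162 and lay between 145 and 154 on the later arrays. Between 42.5% and 44.3% of probe sets were below 100. The ratio of 3′ to 5′ signal of Actb, a measure of RNA integrity, was 1.82 at 0 h, lowest at 2 h with 1.53 and highest at 72 h with 2.62, while that of Gapdh stayed between 1.09 and 1.17. Whether the state of the RNA takes part in the changes at 48 and 72 h was not tested. Of the other marker lists, astrocytes had 13 measured genes, of which 0 rose, 2 fell and 5 changed, the oligodendrocyte lineage 7, of which 0, 1 and 5 did, and fibroblasts and meningeal cells 11, of which 1, 4 and 4 did. Endothelium and mural cells had 4 measured of 11 on the array, with 0 that rose, 1 that fell and 2 that changed, and Schwann cells and neural crest had 5, with 0, 2 and 3. All 12 cell cycle genes were measured and fell. Of all probe sets tested 15.0% rose, 14.1% fell and 39.5% changed.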

How the data were processed

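The deposited values are 1 intensity per probe set and array, from 7 Affymetrix rat arrays. The authors read the arrays with GCOS, obtained the intensity with MAS5.0 and applied global scaling. MAS5.0 subtracts background, so low signals are the least reliable, and the number of arrays limits the precision. Differences of log2(signal + 32) understate the change of low genes, and signals of different probe sets were not compared. Gene symbols came from GEO's 2016 annotation of the array, in which 20826 probe sets carry 1 symbol, and the 57 control probe sets were dropped.

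From the deposited intensity log2(signal + 32) was computed and fitted with limma 3.58.1 in R 4.3.3 (lmFit, eBayes with an intensity trend), with 5 residual degrees of freedom for the line and 4 for the curve. The size threshold followed the methods of the study. On data simulated with the residual spread of the 17709 probe sets, 42 of 100 lines of size 1 (log2) and 80 of 100 of size 2 were recovered, with 11 false calls among 17509. The curve test recovered 53 of 100 humps of size 1 and 91 of 100 of size 2, with 8 false calls. The simulation drew noise independently for each probe set and array and changed far fewer probe sets than passed in the data. An array that deviates as a whole was not simulated, so these rates do not carry over to calls that rest on 1 array. Counts and medians were made in Python 3.11.15 (pandas 2.3.3).

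The channel genes, the 12 gene lists and the tests were chosen with earlier results of these data known. Genes described singly were those past either test, those past the size threshold at 2 or more times, the 6 of highest mean signal, Cacna1f, and those among them whose probe sets disagreed at 72 h. Other genes given with values serve as the rest of a family or as its partners, and were picked with their values seen. Alternatives were 2 other scalings, pseudocounts, filters, thresholds, forms of time, a baseline of 0 and 2 h, the mean over probe sets, each array left out and, chosen after seeing the data, a limit on the mean of the later arrays.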

Additional observations from a re-analysis of the deposited data

How the results depend on the processing

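No paired analysis was possible because each time had 1 array. The 73 dim genes are less precisely read, and of the 21 that a filter at 50 lets in 0 rose, 1 fell and 4 changed by the curve test, namely Cacna1i, Cacng3, Kcnma1 and Scn2a. The count of 5 channel genes that rose became 3 with log2 hours or rank as time and 3 to 6 with an array left out (3 without 72 h). The count of 8 that fell became 5 with a filter at 200 and 1 to 9 with an array left out (5 without 2 h, 4 without 48 h, 1 without 72 h). The 19 of the curve test became 10 with a filter at 200 and 10 to 21 with an array left out (11 without 0 h, 10 without 72 h). At 72 h the 4 higher became 1 at a ratio of 3, and the 8 lower became 5 with scaling to the same median, 5 with the filter at 200, 3 with the mean of 0 and 2 h as baseline, 16 at a ratio of 1.5 with a difference of 100, and 4 at a ratio of 3. At 12 h the 5 lower became 2, 3, 1, 13 and 3 under the same settings in that order. Scaling to the same median put the median of all probe sets at 0.06 to 0.14 on the log2 scale above 0 h at the later times. The median change of channel genes at 12 h, -0.35, became -0.22 with that scaling, -0.21 with a filter at 50, -0.062 at 200 and -0.084 with none. At 72 h, -0.56 became -0.37 with a filter at 50 and -0.17 with none. Filters change which genes count, and otherwise the cause was not tested. Counting only genes with a mean of at least 100 over the 6 later arrays, chosen after seeing the data, left 5 that rose, 8 that fell and 18 of the curve test. For single genes 300 values kept their direction and side of the threshold, 34 lost and 13 gained it, and 1 turned its sign, the linear change of Scn1a, which passed in neither case (-0.21 with all arrays, -0.55 to 0.24 with an array left out, the last without 0 h). Cacna2d1, Cacna2d3 and Scn3b fell with log2 hours or rank as time, while Cacnb2, Kcns3, Kcnk6 and Scn4b did not pass with either, nor Kcnk13 with log2 hours.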

Other observations

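Slc12a2, the cotransporter that loads chloride into immature neurons and glia, had 1091, 965, 958, 1061, 964, 1729.7 and 3353 at the 7 times and rose by 1.64 ± 0.23 over 72 h (adjusted p = 0.00123 with limma), with its 2 highest signals at 48 and 72 h. Slc12a5, the neuronal cotransporter that extrudes chloride, had 746, 408, 459, 304, 477, 308 and 347, all later arrays being below 0 h (curve test, adjusted p = 0.0319). Trpm7, a channel joined to a kinase, had 972, 1076, 829, 1058, 1256, 1727 and 1818 and rose by 1.02 ± 0.17 (adjusted p = 0.00238). Clcn2, a chloride channel of glia, rose by 1.16 ± 0.29 (adjusted p = 0.0141) and Tmem63a, a stretch-gated channel, by 0.92 ± 0.21 (adjusted p = 0.0102).

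Piezo1, the stretch-gated cation channel, had 1524, 1906, 2235, 2273, 2240.5, 2046 and 1947, above its 0 h signal at all 6 later times and highest at 12 h, and changed by the curve test (adjusted p = 0.00683; line, adjusted p = 0.803). Piezo2 stayed at or below 12.9. Trpc6, a channel opened by lipids, had 696, 1049.6, 831, 259, 397, 144 and 104, above 0 h at 2 h and at 0.149 of it at 72 h (linear change -2.77 ± 0.44, adjusted p = 0.002). Slc8a1, the sodium-calcium exchanger, had 2606, 3429, 3173, 2479.8, 2986, 1387 and 1126 and fell (linear change -1.50 ± 0.22, adjusted p = 0.00142). Orai1, the pore of store-operated calcium entry, had 984, 1157, 1405, 1271, 1150.3, 999.6 and 729.7, highest at 6 h and lowest at 72 h like Kcnn4, and fell (linear change -0.61 ± 0.20, adjusted p = 0.0414).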
